A study of Homo sapiens with 6 samples.

Results

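FOS, FOSB, NR4A1, NR4A2 and KLF2 were followed across 6 RNA-seq libraries of the human gastric cancer line SNU668, whose cells are of the signet-ring type. These 5 genes were chosen by name from the 2128 genes of the deposited tables, and all 5 were present. In all, 3 libraries are titled shControl and carry the genotype label WT, and 3 are titled shGPER and labelled as GPER knockdown, that is, a short hairpin RNA against the G protein-coupled estrogen receptor gene GPER1. No treatment, stimulation or time point is given in the labels, so the values describe cells whose serum and handling state are not known. Whether the shControl cells carried a control hairpin, how many hairpins were used and whether libraries of a group were separate cultures are not stated, and p-values therefore measure only the spread between these libraries.

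Immediate early genes are transcribed within minutes of a stimulus, without new protein synthesis, through factors already present in the cell. Well-known inputs are the ERK cascade, which acts on serum response factor and its partners, and cyclic AMP, which acts on CREB bound to the cyclic AMP response element (CRE). GPER1 is a receptor that has been linked to both inputs in other cells. FOS and FOSB encode leucine zipper proteins that pair with JUN proteins to form the AP-1 transcription factor. NR4A1 (NUR77) and NR4A2 (NURR1) encode orphan nuclear receptors that act without a classical ligand and are governed mainly by how much is made. KLF2 encodes a zinc finger factor best known from endothelium and T cells.

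The starts of these genes are shown first, as a description of their sequence and not as an account of their changes. RefSeq windows of 300 bases (250 before and 50 after an annotated start, GRCh38.p14) were found for 4 of the 5 genes, with 2 starts for NR4A1; NR4A2 had no entry. The 150 bases before the start of FOS (chr14:75278678-75278827, plus strand), FOSB (chr19:45467846-45467995, plus strand) and KLF2 (chr19:16324676-16324825, plus strand) are printed 5′ to 3′. Capitals mark the CRE core TGACGT and the TATA box TATAAA in FOS and FOSB, and a match to the MEF2 consensus in KLF2.
FOS: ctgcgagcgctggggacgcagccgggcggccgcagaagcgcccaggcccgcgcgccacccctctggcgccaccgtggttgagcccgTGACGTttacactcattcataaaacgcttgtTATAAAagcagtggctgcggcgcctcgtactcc
FOSB: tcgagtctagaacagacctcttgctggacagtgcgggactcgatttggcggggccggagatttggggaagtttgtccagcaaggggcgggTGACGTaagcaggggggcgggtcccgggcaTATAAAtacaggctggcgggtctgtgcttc
KLF2: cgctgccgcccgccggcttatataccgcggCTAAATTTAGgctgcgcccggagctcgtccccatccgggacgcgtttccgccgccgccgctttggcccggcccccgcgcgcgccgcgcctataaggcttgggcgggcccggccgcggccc

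FOS and FOSB had the same arrangement. The CRE core began 64 bases before the FOS start and 60 bases before the FOSB start, and the TATA box 33 and 30 bases before them. Among all 35116 RefSeq windows of this length, searched on both strands, 7.98% held TGACGT and 11.5% held TATAAA. Neither motif was found in the 2 windows of NR4A1 or in that of KLF2, but a further annotated start of NR4A1 had no window and was not searched. The search took exact letters only, and the KLF2 sequence holds tataag, which differs from TATAAA in its last base, close before the start. The KLF2 window held a MEF2 match, as did 2.99% of all windows, and the EGR motif GCGGGGGCG, as did 5.07%. None of the 5 windows held the complete CRE TGACGTCA (1.85% of all windows, always overlapping the core), the CArG box of serum response factor (1.29%), the AP-1 motif TGANTCA (7.71%) or the NR4A motif AAAGGTCA (1.22%). These matches describe letters in these windows and no binding was measured. Sequence beyond the windows was not searched, so a motif missing from them, the CArG box included, may still lie further upstream.

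The tables gave expression as TPM, the share of a gene among all transcripts of a library after division by transcript length, scaled to the same total in every library, so that levels can be compared between genes. The listed genes summed to 4.66 to 6.42% of that total. TPM keep no read depth, so no counting error can be given. Testing was limited to the 1651 genes with 1 TPM or more in at least 3 libraries, and of these 98.4% were called changed at an adjusted p under 0.05, 47.8% higher and 50.6% lower in shGPER, and TPM did not overlap between the groups for 97.4%. A call in this table is thus the usual state of a gene, and calls among the 5 genes are read below by size, spread and order rather than by number. GPER1 itself measured 11.04, 11.00 and 10.41 TPM in shControl and 1.83, 2.41 and 2.47 TPM in shGPER. It lies within the span of C7orf50, a gene on the other strand that also fell (log2 fold change -1.64). Whether the counting used strand is not stated. The median log2(TPM + 1) of the tested genes was -0.15 in shGPER relative to shControl.

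All 5 genes passed the filter and were tested. In shGPER cells 4 of them were called higher, against the 47.8% of all tested genes called higher, none was called lower, and KLF2 was not called. Their median log2 fold change, which is the value of FOSB, was 1.32, beside -0.49 for all tested genes, and is not read as a shared change. FOSB was under 1 TPM in every shControl library and passed the filter only through shGPER, so its direction was given by the filter.

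The nuclear receptor genes had the highest levels and, on the log2(TPM + 1) scale, the largest changes. NR4A2 (ENSG00000153234; chromosome 2, 156324432 to 156342348, minus strand, GRCh38) was at 3.57, 4.55 and 3.34 TPM in shControl and at 18.36, 18.54 and 19.75 TPM in shGPER. The lowest shGPER library was several times the highest shControl library, and the shGPER libraries lay close to each other, with a coefficient of variation (SD divided by the mean) of 4.00% against 16.8% in shControl. The mean rose 4.94-fold, from 3.82 ± 0.643 to 18.9 ± 0.756 TPM (SD, n = 3 each). On the log2(TPM + 1) scale, on which changes at low TPM look smaller than they are, NR4A2 rose by 2.05 (SE 0.11, 95% interval 1.80 to 2.31; limma, adjusted p = 7.33e-07), and was 24th by size among the 789 genes called higher.

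NR4A1 (ENSG00000123358; chromosome 12, 52022832 to 52059507, plus strand) was at 3.78, 3.20 and 4.72 TPM in shControl and at 11.48, 16.07 and 15.53 TPM in shGPER. The groups did not overlap, but the shGPER libraries were spread more widely than for NR4A2, because library 1 was lower than libraries 2 and 3. The coefficient of variation was 17.5% in shGPER and 19.7% in shControl, beside medians of 11.2% and 8.42% over all tested genes. The mean rose 3.68-fold, from 3.90 ± 0.767 to 14.4 ± 2.51 TPM (SD, n = 3 each), and the log2 fold change was 1.65 (SE 0.16, 95% interval 1.28 to 2.01; limma, adjusted p = 1.47e-05), the 86th by size among the genes called higher. NR4A1 is overlapped on the other strand by the long non-coding RNA gene AC025259.3, which holds 9.53% of the 31-base words of NR4A1 transcripts in reverse complement. The kit kept strand, but no source used here says whether the counting used it, so that reads of this partner cannot be told apart from those of NR4A1.

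**Figure D1:**
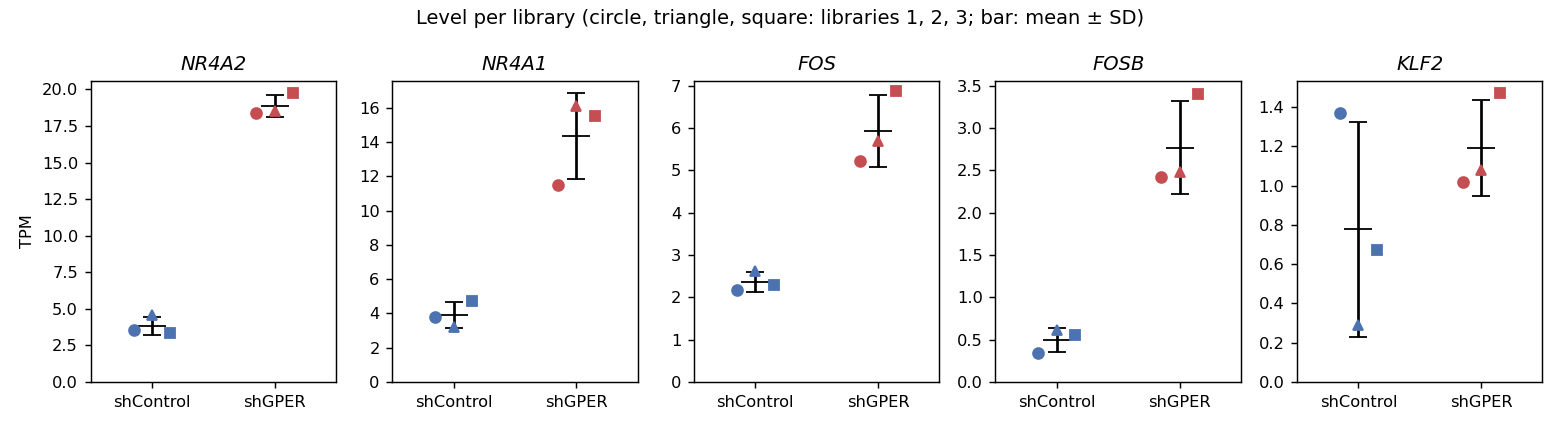
TPM of the 5 genes in each shControl and shGPER library, with the group mean and SD as bars; the vertical axes start at 0 and differ between panels. For NR4A2, NR4A1, FOS and FOSB every shGPER library lies above every shControl library, whereas for KLF2 the shControl library at 1.37 TPM lies among the shGPER libraries.

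FOS, which encodes the c-Fos subunit of AP-1, was lower in level and changed less. FOS (ENSG00000170345; chromosome 14, 75278774 to 75282230, plus strand) was at 2.16, 2.62 and 2.29 TPM in shControl and at 5.22, 5.69 and 6.87 TPM in shGPER. The groups did not overlap, and the highest value was that of shGPER library 3. The mean rose 2.52-fold, from 2.36 ± 0.237 to 5.93 ± 0.850 TPM (SD, n = 3 each), with a log2 fold change of 1.04 (SE 0.12, 95% interval 0.76 to 1.32; limma, adjusted p = 5.05e-05). FOS was 493rd by size among the 789 genes called higher. No 31-base word of its transcripts occurs in a transcript of another gene in GENCODE.

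FOSB (ENSG00000125740; chromosome 19, 45467995 to 45475179, plus strand) was the least abundant of the 4 genes that rose, at 0.34, 0.61 and 0.55 TPM in shControl and at 2.42, 2.48 and 3.40 TPM in shGPER. Library 3 was again the highest of the shGPER libraries. The ratio of means, 5.53, was the largest of the 5 genes, whereas the log2 fold change with a pseudocount of 1 was 1.32 (SE 0.14, 95% interval 1.00 to 1.64; limma, adjusted p = 2.46e-05). Without a pseudocount the difference of mean log2 TPM was 2.49 for FOSB, 2.32 for NR4A2, 1.88 for NR4A1, 1.33 for FOS and 0.87 for KLF2. The order of FOSB and NR4A2 thus turned with the pseudocount. The body of FOSB lies within the span of ERCC1, a DNA repair gene on the other strand, and 0.963% of its 31-base words occur in reverse complement in transcripts of other genes.

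KLF2 (ENSG00000127528; chromosome 19, 16324817 to 16327874, plus strand) was near 1 TPM in both groups. It was at 1.37, 0.29 and 0.67 TPM in shControl and at 1.02, 1.08 and 1.47 TPM in shGPER, so the groups overlapped. Its shControl libraries had the widest spread of any of the 5 genes, with a coefficient of variation of 70.5%, against 20.5% in shGPER. The log2 fold change was 0.34 (SE 0.21, 95% interval -0.15 to 0.83; limma, adjusted p = 0.150), an interval that holds 0 and overlaps that of FOS. Without shControl library 1, the high one, KLF2 was called higher (log2 fold change 0.57; limma, adjusted p = 0.0113). The shControl libraries then left were under 1 TPM and every shGPER library was above it. KLF2 thus met the filter only through shGPER there, which gave its direction. Two-sided exact permutation tests of TPM gave p = 0.3 for KLF2 and p = 0.1 for each of the other genes, the lowest p that 3 libraries against 3 can give.

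The order of the levels differed between the groups. In shControl NR4A1 and NR4A2 overlapped at the top, FOS followed, and KLF2 and FOSB overlapped at the bottom, with FOSB above KLF2 in library 2 alone. In shGPER the order was NR4A2, NR4A1, FOS, FOSB and KLF2 in each of the 3 libraries, with no overlap in TPM between neighbours.

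Ratios of 2 genes within a library do not depend on how the library is scaled, and show how far the genes moved in step. FOSB amounted to 0.157, 0.233 and 0.240 of the FOS level in shControl and to 0.464, 0.436 and 0.495 in shGPER. The ratio of FOSB to FOS was thus higher in every shGPER library, by 1.17 on the log2 scale (SD 0.34 in shControl and 0.092 in shGPER). Since FOSB was under 1 TPM in shControl, this difference depends on low values and was 0.28 with a pseudocount of 1. FOSB also passed the filter only through shGPER, which favoured a rise of this ratio, so the difference is given as a description only.

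Within the NR4A pair the groups overlapped. The ratio of NR4A2 to NR4A1 was 0.944, 1.42 and 0.708 in shControl and 1.60, 1.15 and 1.27 in shGPER, a log2 difference of 0.43 (SD 0.51 and 0.24; exact permutation p = 0.3). It was 0.70 without shControl library 2 and 0.20 without shControl library 3. NR4A2 was above NR4A1 in 1 of 3 shControl and in all 3 shGPER libraries. Between the families, NR4A2 stood at 1.65, 1.74 and 1.46 times FOS in shControl and at 3.52, 3.26 and 2.88 times FOS in shGPER, a log2 difference of 0.99 (SD 0.13 and 0.15). NR4A1 stood at 1.75, 1.22 and 2.06 times FOS in shControl and at 2.20, 2.82 and 2.26 times FOS in shGPER, a log2 difference of 0.56, or 0.35 without shControl library 2. In these TPM, without any correction for base composition, FOS thus rose least of the 4 genes by each of its 3 ratios to the others. That order was not kept under every correction for base composition: by 1 of those given below, FOS rose more than NR4A1 and FOSB. The ratio of NR4A2 to FOSB was 10.5, 7.46 and 6.07 in shControl and 7.59, 7.48 and 5.81 in shGPER, and the groups overlapped.

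Of the 10 ratios among the 5 genes, 4 did not overlap between the groups, namely those of FOSB, NR4A1 and NR4A2 to FOS and that of FOSB to KLF2. Each of these 4 had an exact permutation p = 0.1, or 0.25 after Benjamini-Hochberg adjustment over the 10 ratios. A rise of the ratios of FOSB to FOS and to KLF2 was favoured by the filter that FOSB passed only through shGPER. Among all pairs of genes called higher, the ratio did not overlap for 41.0%, and among all pairs of tested genes for 71.7%, so 4 of 10 is near the level of the table.

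**Figure D2:**
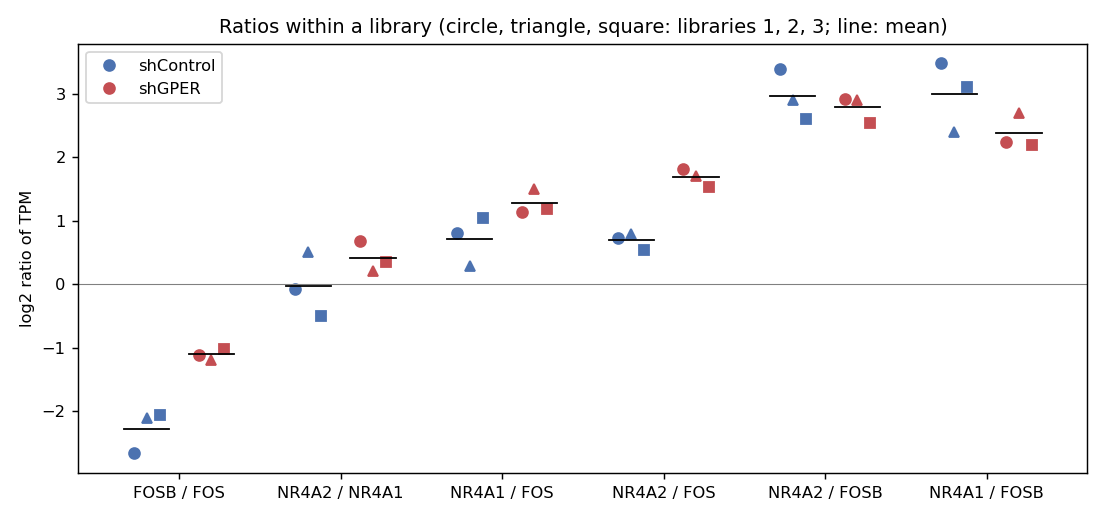
Log2 ratio of TPM of 6 gene pairs in each library, shControl in blue and shGPER in red, with lines at the group means. FOSB / FOS and NR4A2 / FOS are higher in all shGPER libraries, with log2 differences of 1.17 and 0.99, whereas NR4A2 / NR4A1 and NR4A2 / FOSB overlap between the groups.

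Change in this table followed the base composition of transcripts: genes of high GC content mostly rose and genes of low GC content mostly fell. The 5 genes were therefore placed on that scale. The GC content, taken as the median over annotated transcripts, was 52.4% for NR4A2, 57.7% for FOSB, 60.1% for FOS, 61.4% for NR4A1 and 66.8% for KLF2. Against the direction of that trend, on the log2(TPM + 1) scale NR4A2, with the lowest GC content of the 5, rose most, and KLF2, with the highest, changed least. When the trend of each library with GC content was removed, 31.5% of tested genes were called higher and 31.1% lower. NR4A2 then had a log2 fold change of 2.00 (limma, adjusted p = 2.11e-06), near its value without the correction. NR4A1 and FOSB fell back to 0.70 and 0.66 but were still called (adjusted p = 0.00231 and 0.00220). FOS was no longer called, at 0.18 (adjusted p = 0.154), and KLF2 was called lower, at -0.77 (adjusted p = 0.0180).

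The result for FOS depended on which transcripts gave its GC content. Most annotated FOS transcripts are short, with a median length of 815 bases, and the longest, of 2158 bases, has a GC content of 52.6%. With the GC content of the longest transcript of each gene, an alternative added after the data were seen, FOS was called higher at 0.84 (limma, adjusted p = 0.000248). NR4A2, at 47.9% GC, then rose by 2.38, NR4A1 by 0.80 and FOSB by 0.63, all called, and KLF2 stayed called lower at -0.75 (adjusted p = 0.0184). By this measure 30.4% of tested genes were called higher and 31.7% lower. Since the trend was drawn from a table in which nearly every gene changed, its removal can also take out differences between the groups that do not come from base composition.

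**Figure D3:**
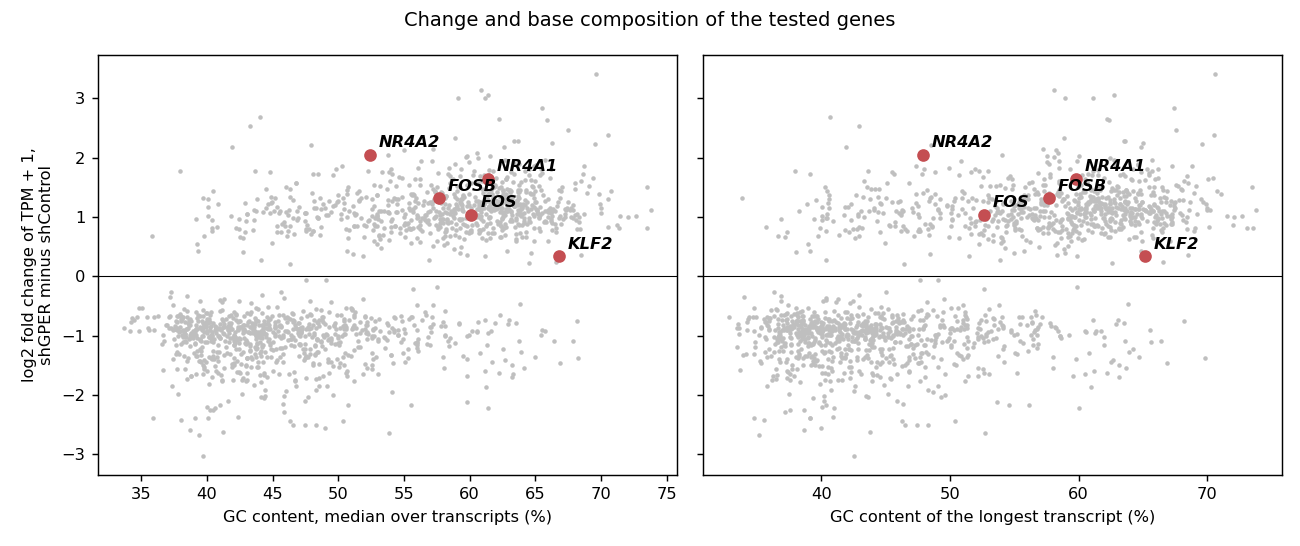
Log2 fold change of TPM + 1 (shGPER minus shControl) of tested genes against GC content, as the median over transcripts (left) and for the longest transcript (right), with the 5 genes in red. FOS moves from 60.1 to 52.6% and NR4A2 from 52.4 to 47.9% between the panels, while KLF2 stays among the genes of high GC content.

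**Figure D4:**
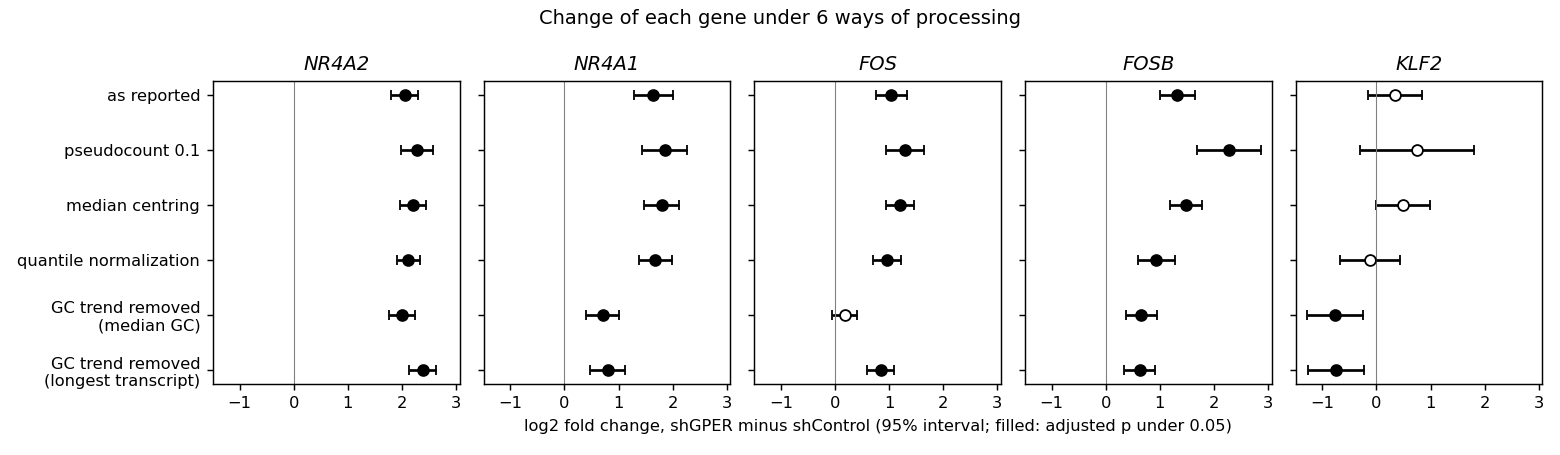
Log2 fold change (shGPER minus shControl) of each gene with its 95% interval as reported and under 5 other ways of processing; filled points had an adjusted p under 0.05. NR4A2 lies between 2.00 and 2.38 throughout, FOS is open in 1 setting, and KLF2 lies on both sides of 0.

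Other immediate early genes were taken from a list of 45, of which 7 were in the table and 5 were tested; the other 38 were not analysed here. Of the 5 tested, 3 rose and 2 fell. RHOB, a stress-induced small GTPase, was at 10.60, 10.42 and 11.04 TPM in shControl and at 27.34, 32.17 and 32.60 TPM in shGPER, a log2 fold change of 1.44. BTG2, an antiproliferative gene that p53 also induces, rose by 1.27 from a mean of 42.7 TPM, and IER5, a regulator of heat shock factor, by 1.21 from 24.7 TPM. GADD45B, a stress-inducible regulator of p38 signaling, fell from 16.52, 20.03 and 18.10 TPM to 4.54, 5.35 and 5.14 TPM, a log2 fold change of -1.68. ID1, an inhibitor of helix-loop-helix factors induced by BMP signaling, fell from a mean of 565 to 280 TPM (-1.01). All 5 had an adjusted p of 1.18e-06 or lower (limma) and kept their call and direction without the GC trend.

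The 2 genes below the filter were EGR4 and ARC, both activity-regulated genes of neurons. EGR4 was at 0.12, 0.26 and 0.23 TPM in shControl and at 0.67, 0.53 and 0.76 TPM in shGPER. ARC was at 0.19, 0.34 and 0.38 TPM in shControl and at 0.63, 1.00 and 0.85 TPM in shGPER. The groups did not overlap for either gene, as for 88.3% of genes below the filter.

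Among AP-1 subunits FOS and FOSB were the only members in the table of a list of 17, and among NR4A and RXR genes NR4A1 and NR4A2 were the only ones of 6. The JUN partners of FOS and the third NR4A gene were not analysed here. Of 18 KLF genes 3 were tested, and they went different ways. KLF5, an epithelial growth-promoting factor, fell from 36.34, 36.82 and 40.07 TPM to 15.47, 17.13 and 17.41 TPM (log2 fold change -1.13). KLF9, a factor induced by thyroid and glucocorticoid hormones, rose from 1.07, 1.14 and 1.26 TPM to 2.75, 3.04 and 2.79 TPM (0.84). KLF2 lay between them.

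The lists of the 2 inputs had few tested genes. Of the ERK cascade list 3 of 29 genes were tested. EGFR, the growth factor receptor at the head of the cascade, fell from a mean of 39.4 to 13.6 TPM, as did RPS6KA4, the nuclear kinase MSK2, with a log2 fold change of -1.36, while RPS6KA2, the kinase RSK3, rose from 6.51 to 16.8 TPM. DUSP8, a phosphatase of MAP kinases, was the only tested gene of 15 ERK feedback genes and rose from 0.753 to 2.30 TPM; it passed the filter only through shGPER, which gave its direction. Of 33 cyclic AMP and CREB genes 2 were tested and both rose, namely ADCY9, an adenylyl cyclase, from 6.08 to 16.5 TPM, and CRTC1, a coactivator of CREB, from 1.40 to 3.74 TPM. Without the GC trend DUSP8 and CRTC1 lost their call, with log2 fold changes of -0.15 and -0.13.

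The list of genes known as AP-1 targets moved the other way from FOS and FOSB. All 5 tested genes of 15 fell. Their median log2 fold change was -1.10, beside -0.49 for all tested genes. PLAUR, the urokinase receptor, was at 93.65, 94.26 and 88.85 TPM in shControl and at 38.64, 42.53 and 44.74 TPM in shGPER. The others were the hyaluronan receptor CD44 (-1.35), cyclin D1 (CCND1, -1.10) and the cytokines IL6 (-1.03) and CXCL8 (-0.88). Without the GC trend 4 of the 5 were still called lower and CXCL8 was not called (0.04). Across these lists, leaving out the 5 genes themselves, 8 of 18 tested genes rose and 10 fell, beside 47.8% and 50.6% of all tested genes.

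**Figure D5:**
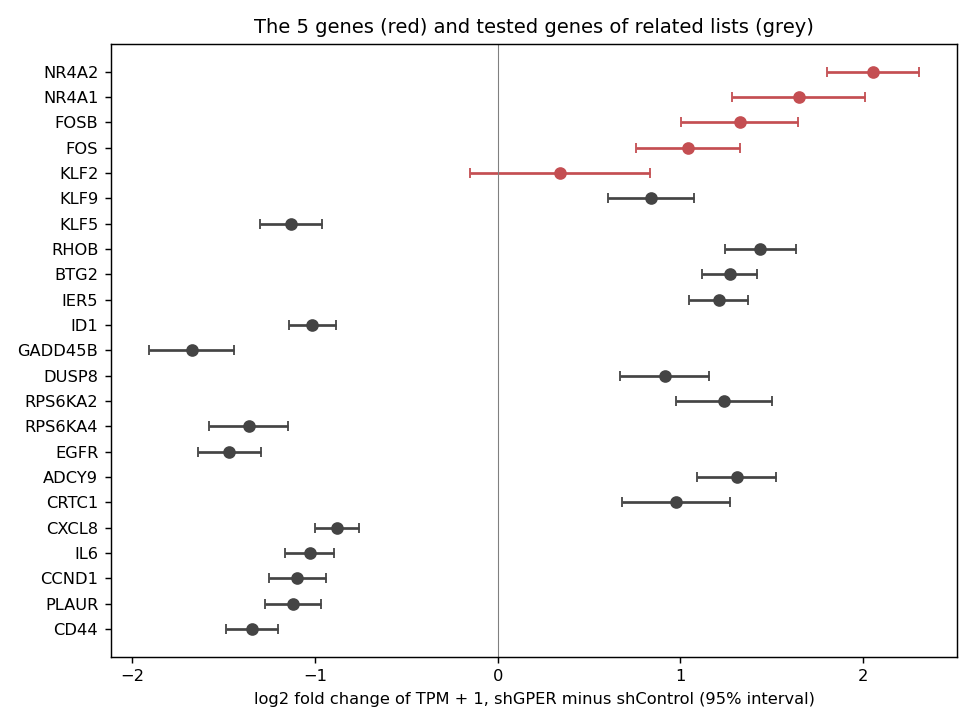
Log2 fold change of TPM + 1 (shGPER minus shControl) with its 95% interval for the 5 genes (red) and for the tested genes of the immediate early, KLF, ERK, cyclic AMP and AP-1 target lists (grey). Immediate early genes lie on both sides of 0, from RHOB at 1.44 to GADD45B at -1.68, and the 5 AP-1 targets at the bottom lie below 0.

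Genes with the most similar profile were sought by Pearson correlation of log2(TPM + 1) over the 6 libraries among 1093 protein-coding genes whose mean was 5 TPM or more in 1 of the groups. Since most genes separated the groups, 419 of them had a correlation over 0.9 with NR4A2, and the value is a description without a test. The closest to NR4A2 were PID1 and ADGRG1, with r of 0.9997 and 0.999. ADGRG1, an adhesion G protein-coupled receptor, was at 5.64, 6.76 and 5.00 TPM in shControl and at 24.51, 27.34 and 27.18 TPM in shGPER. The closest were TRMT1 and PKN3 for NR4A1, ISYNA1 and COL9A3 for FOS, and CYTH1 and PTP4A3 for FOSB, each with an r of at least 0.9975. Among the 5 genes FOS and FOSB were the closest pair, with an r of 0.997, and NR4A1 and NR4A2 had 0.956. KLF2 had an r of 0.479 to 0.587 with the other 4 genes, and no gene reached 0.9 with it. Its closest gene was RAB11FIP4, at 0.892.

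Markers of other cell types moved with these genes in part. All 4 neuroendocrine markers in the table, of a list of 8, were called higher in shGPER, beside 47.8% of all tested genes. Of these, CHGB and SCG3 were under 1 TPM in every shControl library. Both passed the filter only through shGPER, which gave their direction. The summed level of the 4 was 6.82 to 7.41 TPM in shControl and 64.2 to 65.3 TPM in shGPER. The summed level of 5 of 6 fibroblast markers was 7.04 to 9.92 and 31.9 to 33.3 TPM, but of the 3 tested COL1A1 alone was called higher, and DCN and LUM were called lower (log2 fold changes -0.66 and -0.68). The summed level of 2 of 5 endothelial markers was 2.09 to 2.52 and 7.52 to 8.71 TPM, where CDH5 was called higher (log2 fold change 1.65) and ERG overlapped between the groups and was not called (0.21). No leukocyte marker of 6 was in the table. Of 12 epithelial markers only CDH1 was listed, at 0.44 to 0.71 TPM in shControl and 0.11 to 0.42 TPM in shGPER, and of 8 gastric markers only TFF1, at 4.44 to 6.22 and 0.26 to 2.91 TPM, so the label of the cell line could not be checked further. In bulk samples more cells with a transcript and more transcript per cell cannot be told apart. The part of these markers in the changes of the 5 genes was not tested.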

How the data were processed

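The authors deposited TPM per gene, 1 table per library, for 3 shControl and 3 shGPER libraries, grouped by title. Per the labels' protocols, the kit was for stranded mRNA, with total RNA as input. Fastp, HISAT2, RSEM and hg38 appear in the submitters' processing notes; versions, settings and the rule by which 2128 genes were listed are not given in the sources used here. TPM hold no depth, so precision rests on the replicates alone.

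Log2(TPM + 1) was fitted with limma 3.58.1 (R 4.3.3, intensity trend, shGPER minus shControl) on the 1651 genes with at least 1 TPM in at least 3 libraries, and p-values were adjusted over all of them (Benjamini-Hochberg, two-sided, threshold 0.05). The fit was tested on simulated data in which most genes were unchanged, unlike in this table, so that test does not bear on the share of genes called here. Ratios used TPM without a pseudocount and two-sided exact permutation tests. GC content, positions and 31-base words came from GENCODE release 29, promoter windows from RefSeq. The GC trend was a natural spline with 3 degrees of freedom on each library's deviations from gene means; 98.5% of called genes had a GC value. Exact tests used scipy 1.17.1 under Python 3.11.15.

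The 5 genes and all lists were chosen with earlier results of these data known. Genes were named by rule: the 5 genes, GPER1, every listed gene of the AP-1, NR4A and RXR, KLF and immediate early lists, up to 4 genes of smallest p from each other list, and the 2 most similar profiles per gene; CCND1 and the marker genes fall outside it and were named after their values were seen. Alternatives were other scalings (quantile normalization, median centring), variance priors (robust, without trend), filters (none, 5 TPM) and pseudocounts (0.5, 0.1), a replicate block, removal of the GC trend and leaving out each library.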

Additional observations from a re-analysis of the deposited data

How the results depend on the processing

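NR4A2, NR4A1 and FOSB were called higher under every alternative that tested them, with log2 fold changes of 1.98 to 2.38, 0.70 to 1.86 and 0.63 to 2.27. FOSB passed the filter of 1 TPM only through shGPER, and NR4A2, NR4A1 and FOS passed that of 5 TPM only through shGPER. In those settings their direction was given by the filter. FOS was called in all but 2 settings, both with the GC trend (median over transcripts) removed, at 0.18 without and with a replicate block (0.1758; adjusted p = 0.154 and 0.199). KLF2 turned to -0.12 with quantile normalization (-0.1233, adjusted p = 0.622), to -0.77 without the GC trend, alone or with a replicate block (adjusted p = 0.0180 and 0.0144), and to -0.75 with the GC content of the longest transcript, so that 1 of the 5 genes was called lower in these 3 settings, against 0. Leaving out 1 library gave 0.13 to 0.57 for KLF2. The value of 0.57 was that without shControl library 1, where the direction was given by the filter.

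Over all genes, 512 were called higher and 506 lower without the GC trend, 493 and 498 with a replicate block as well, and 495 and 516 with the GC content of the longest transcript, against 789 and 836. A filter of 5 TPM left 438 higher, and FOSB and KLF2 were then not tested; fewer genes enter such a fit. Of the listed genes, 13 were called higher with no filter and 5 with that of 5 TPM, against 8. The log2 difference of FOSB to FOS was 1.17 without a pseudocount and 0.28 with a pseudocount of 1. The GC trend was removed on the log2(TPM + 1) scale, so values without it are set against those with a pseudocount of 1. For FOSB to FOS the difference was then 0.48, against 0.28. For NR4A2 to NR4A1 it was 1.30, against 0.41, and 0.43 without a pseudocount. Both used the median GC content over transcripts. With the GC content of the longest transcript FOSB rose less than FOS (0.63 against 0.84), so the FOSB to FOS difference changed direction. The cause was not tested. Replicate numbers did not pair the libraries (correlations of deviations 0.033, -0.087 and 0.013), and a replicate block alone changed no call of the 5 genes (KLF2, adjusted p = 0.145).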
